A study of Caenorhabditis elegans with 2 samples.

Results

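The lys genes of Caenorhabditis elegans, lys-1 to lys-10, encode protist-type lysozymes, enzymes that cut the peptidoglycan of bacterial cell walls. Occupancy of these 10 genes by the transcription factor HLH-30 was described, out of 19973 protein-coding genes on the 6 nuclear chromosomes. The members were taken by name, and a gene was called occupied when the summit of a thresholded ChIP-seq peak lay inside it or up to 5 kb upstream of its annotated 5′ end. By this rule 2 of the 10 genes, lys-1 and lys-4, were occupied, with 3 summits between them, and 8 genes were not, against 37.8% of all protein-coding genes occupied.

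Chromatin immunoprecipitation and sequencing (ChIP-seq) had been done in whole L4 hermaphrodites of strain OP433, which carries unc-119(tm4063) III and the integrated transgene wgIs433. The transgene makes HLH-30 fused at its C-terminus to GFP and FLAG, and chromatin was sheared by sonication and pulled down with an anti-GFP antibody. There were 2 biological replicates from separate biosamples in 1 group, so there is no contrast of conditions and no test between groups, and the age of the worms is recorded as unknown. The tagged protein comes from 1 transgenic line, and in whole worms strong binding in few cells and weak binding in many cells cannot be told apart.

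HLH-30 is the worm counterpart of mammalian TFEB, a basic helix-loop-helix leucine-zipper factor that binds E-boxes (CANNTG), with CACGTG and CACATG among its preferred forms, and acts on autophagy, lysosome and fat metabolism genes. It is also needed for the defence of worms against infection with Staphylococcus aureus. Worms feed on bacteria, and lysozymes act in the gut both in digestion and in defence. Reporters of lys-1, lys-7 and lys-8 are known to be active in the intestine, where the GATA factor ELT-2 acts on many genes through sites such as TGATAA, and lys-7 and lys-8 are known targets of DAF-16, the FOXO factor of the insulin pathway, which binds GTAAACA.

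The sequences at the summits are given first, because the 3 occupied sites differed in the motifs they held. Each is 101 bases of the ce11 build, 50 on each side of the summit, on the strand of the gene. Capitals mark E-boxes (any CANNTG), the GATA site TGATAA and the DAF-16 element GTAAACA, on either strand. The number after the gene is the distance of the summit from the 5′ end in bp, with negative values upstream. The last pair of sequences belongs to the strongest sites that missed the threshold.
lys-4 −807, thresholded (chrIV:11623931-11624031, minus strand): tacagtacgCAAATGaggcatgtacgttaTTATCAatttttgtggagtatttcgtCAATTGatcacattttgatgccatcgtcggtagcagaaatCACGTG
lys-1 −1140, thresholded (chrV:10276714-10276814, plus strand): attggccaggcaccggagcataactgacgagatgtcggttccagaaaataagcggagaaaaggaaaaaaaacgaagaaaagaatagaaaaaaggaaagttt
lys-1 −3904, thresholded (chrV:10273950-10274050, plus strand): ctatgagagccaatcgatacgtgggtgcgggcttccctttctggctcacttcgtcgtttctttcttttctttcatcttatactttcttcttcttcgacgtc
lys-4 +663, intron, below the threshold (chrIV:11622461-11622561, minus strand): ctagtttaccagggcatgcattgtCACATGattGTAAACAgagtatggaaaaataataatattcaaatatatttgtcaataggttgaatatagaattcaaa
lys-8 −233, below the threshold (chrII:5585895-5585995, plus strand): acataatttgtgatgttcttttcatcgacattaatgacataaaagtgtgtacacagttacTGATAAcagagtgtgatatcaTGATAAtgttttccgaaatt

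Both lys-1 windows held none of the 5 motifs searched, while the lys-4 window held E-boxes and a GATA site. In the lys-4 window the palindrome CACGTG took bases +45 to +50 from the summit, at the edge of the window and toward the gene. A GATA site, read as TTATCA on this strand, took bases −21 to −16, and the other E-box forms CAAATG and CAATTG took bases −41 to −36 and +5 to +10. The intronic lys-4 site held CACATG at −26 to −21 and the DAF-16 element GTAAACA at −17 to −11. The lys-8 site held TGATAA at both +10 to +15 and +31 to +36, and no E-box.

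The lists hold the authors' signal value for each site, a score of peak strength on a scale that the sources used here do not state. It serves here to rank sites within a list and to set the replicates side by side. Besides the thresholded list there were 3 lists of peaks and background together, for the pooled replicates, replicate 1 and replicate 2. A site in one of these is called an entry. The thresholded list held 7168 peaks with pooled signal values of 31.9 to 1388, with quartiles of 43.3, 61.8 and 103. Read counts are not in the lists, and the depth behind a value is unknown.

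The share of lys genes occupied was 2 of 10, or 20% (95% exact Clopper-Pearson interval 2.52 to 55.6, counting error only), against 37.8% of all protein-coding genes. With 10 genes the interval is wide and holds the background share, so the count cannot show whether lys genes differ from other genes. No test was run over the members. The interval treats the genes as independent, though windows of some neighbouring lys genes overlap, and the background was not matched for gene length. In the pooled list of peaks and background, 4 of the 10 lys genes had an entry, lys-1, lys-2, lys-4 and lys-8, against 58.6% of all genes. Counting the pooled list and both replicate lists together, 5 of the 10 had an entry, against 68.3% of all genes. The fifth was lys-3, and lys-5, lys-6, lys-7, lys-9 and lys-10 had none.

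**Figure D1:**
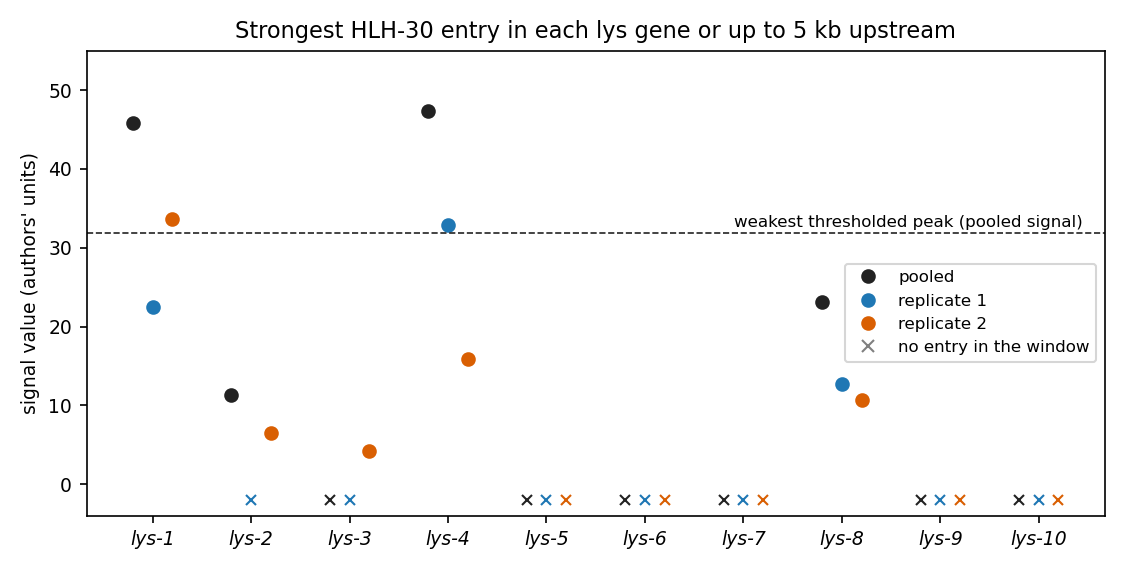
Strongest entry in each lys gene or up to 5 kb upstream (x axis, gene; y axis, signal value in the authors' units) in the pooled, replicate 1 and replicate 2 lists, with crosses for no entry and a dashed line at the pooled signal of the weakest thresholded peak, 31.9. Pooled values of lys-4 (47.4) and lys-1 (45.9) lie above the line, lys-8 (23.2) and lys-2 (11.3) lie below it, and 5 genes have crosses in every list.

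By pooled signal, the strongest site of the family was upstream of lys-4, while in replicate 2 both lys-1 sites had higher values. Its peak spanned chrIV:11623806-11624155, with the summit at 11623981, 807 bp upstream of the 5′ end of lys-4 in the space between lys-4 and lys-5. Replicate 1 gave a signal value of 32.9 and replicate 2 one of 15.9, with a mean of 24.4 ± 12.04 (SD, n = 2), and the pooled list gave 47.4. Replicate 1 was thus 2.07 times replicate 2, a ratio above 2 that 4.68% of the thresholded summits found in both replicates showed. The median ratio of replicate 1 to replicate 2 over those summits was 1.00. The site ranked 3442 of 30000 in replicate 1 and 7709 of 30000 in replicate 2. When the 7168 strongest entries of replicate 2 stood in for the thresholded list, lys-4 was no longer occupied, and 1 lys gene, lys-1, was left. The replicate summits lay 801 bp (replicate 1) and 848 bp (replicate 2) upstream. The nearest annotated 5′ end was that of lys-4 itself, and dsl-5, a gene of the Delta/Serrate/LAG-2 ligand family, also had the site in its window.

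The nearer lys-1 site was weaker by a small margin and more even between replicates. Its peak spanned chrV:10276589-10276938, with the summit 1140 bp upstream of lys-1. It had values of 22.5 (replicate 1) and 23.5 (replicate 2), with a mean of 23.0 ± 0.731 (SD, n = 2), and 45.9 in the pooled list. The ranks were 5374 and 5231, and the replicate summits fell 1138 bp and 1131 bp upstream, in replicates 1 and 2. The summit lay between protein-coding genes, 1118 bp from the 5′ end of Y22F5A.11, which was closer than that of lys-1. Assigned by the nearest 5′ end alone, the site would not count for lys-1.

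At the farther lys-1 site the replicates placed their entries differently. The thresholded peak spanned chrV:10273825-10274174, with the summit 3904 bp upstream of lys-1 and a pooled signal value of 42.5. Replicate 2 had an entry of 33.6 there, at rank 3392. No replicate 1 entry covered the summit, which was so for 68 of the 7168 thresholded summits, or 0.949%. The nearest replicate 1 entry had its summit 3661 bp upstream of lys-1, with a signal value of 19.0, at rank 6377. It overlapped the thresholded peak in part, and also a separate pooled entry of 18.8 at 3668 bp that was not thresholded. With the 7168 strongest entries of replicate 1 in place of the thresholded list, lys-1 had 2 summits, of which this entry was one. The nearest 5′ end to the thresholded summit was that of Y22F5A.11, at 1646 bp, and the summit was also in the window of ric-4, which encodes the synaptic vesicle fusion protein SNAP-25. When the window ended at the nearest protein-coding gene, this summit no longer counted for lys-1.

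All 3 sites were in the weaker part of the thresholded list. Its peaks with higher signal values made up 68.4% of the list for the lys-4 site, 70.7% for the nearer lys-1 site and 76.3% for the farther one. By its strongest peak, lys-4 was exceeded by 78.3% of the 7546 occupied genes and lys-1 by 80.4%. The median strongest signal was 46.6 in occupied lys genes and 76.4 in all occupied genes. The weakest thresholded peak of the whole list had a signal of 31.894 and the strongest pooled entry outside it 31.891.

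**Figure D2:**
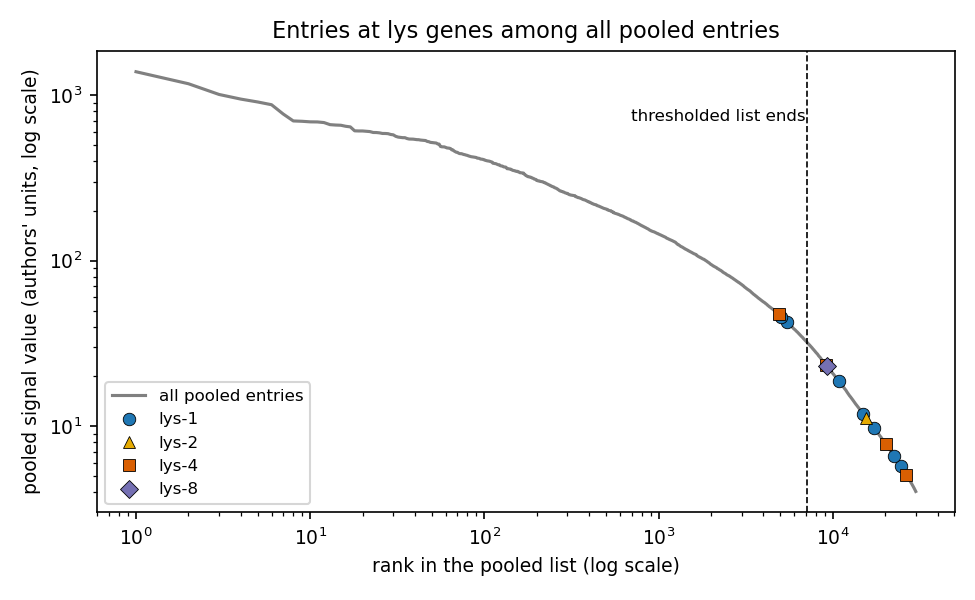
Pooled signal value (y axis, authors' units, log scale) against rank in the pooled list (x axis, log scale) for all 30000 entries (grey line) and for the 13 entries in the windows of lys genes (symbols), with the end of the thresholded list as a dashed line. The thresholded lys-4 and lys-1 sites, at ranks 4903, 5069 and 5473, lie in the weaker part of the thresholded list of 7168 peaks, and no lys entry lies among the strongest peaks.

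The remaining entries of lys-1 and lys-4 had lower values. The strongest was in an intron of lys-4, 663 bp downstream of the 5′ end, at 9.50 in replicate 1, 6.44 in replicate 2 and 23.4 in the pooled list, rank 9132. A weak lys-4 entry of 7.81 lay 77 bp upstream of the 5′ end, and it had an entry of 7.24 in replicate 1 and none in replicate 2. For lys-1, entries of 11.9 and 6.62 lay 2074 and 341 bp upstream and one of 9.81 in an intron, 629 bp downstream. The weakest pooled entries were one of 5.75 for lys-1, 938 bp upstream in an exon of the noncoding gene linc-38, and one of 5.08 for lys-4, 1039 bp upstream. The entries nearest the 5′ ends of lys-1 and lys-4, at 6.62 and 7.81, were thus far below the thresholded sites of these genes.

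The gene lys-8 had its only pooled entry close to the 5′ end, below the threshold. It spanned chrII:5585770-5586119, with the summit 233 bp upstream. The values were 12.7 (replicate 1) and 10.6 (replicate 2), with a mean of 11.6 ± 1.43 (SD, n = 2), and 23.2 in the pooled list, rank 9218. The deposited −log10 q-value of this entry and of the intronic lys-4 entry was 4.301, which all 7168 thresholded peaks and 10011 of the 30000 pooled entries shared, so it did not separate them from the thresholded list. Replicate summits lay 234 bp (replicate 1) and 218 bp (replicate 2) upstream, and T25E4.2 also had the site in its window.

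The gene lys-2 had a pooled entry of 11.3 in a coding exon, 1098 bp downstream of the 5′ end and next to its 3′ end. It was 4.46 in replicate 1, whose own summit lay outside the lys-2 window, and 6.47 in replicate 2, with a mean of 5.46 ± 1.43 (SD, n = 2). Its −log10 q-value was 1.25. The gene lys-3 had only a replicate 2 entry of 4.24, with the summit 234 bp upstream, at rank 20959 of 30000. That entry also fell in the windows of lys-2 and B0024.3.

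**Figure D3:**
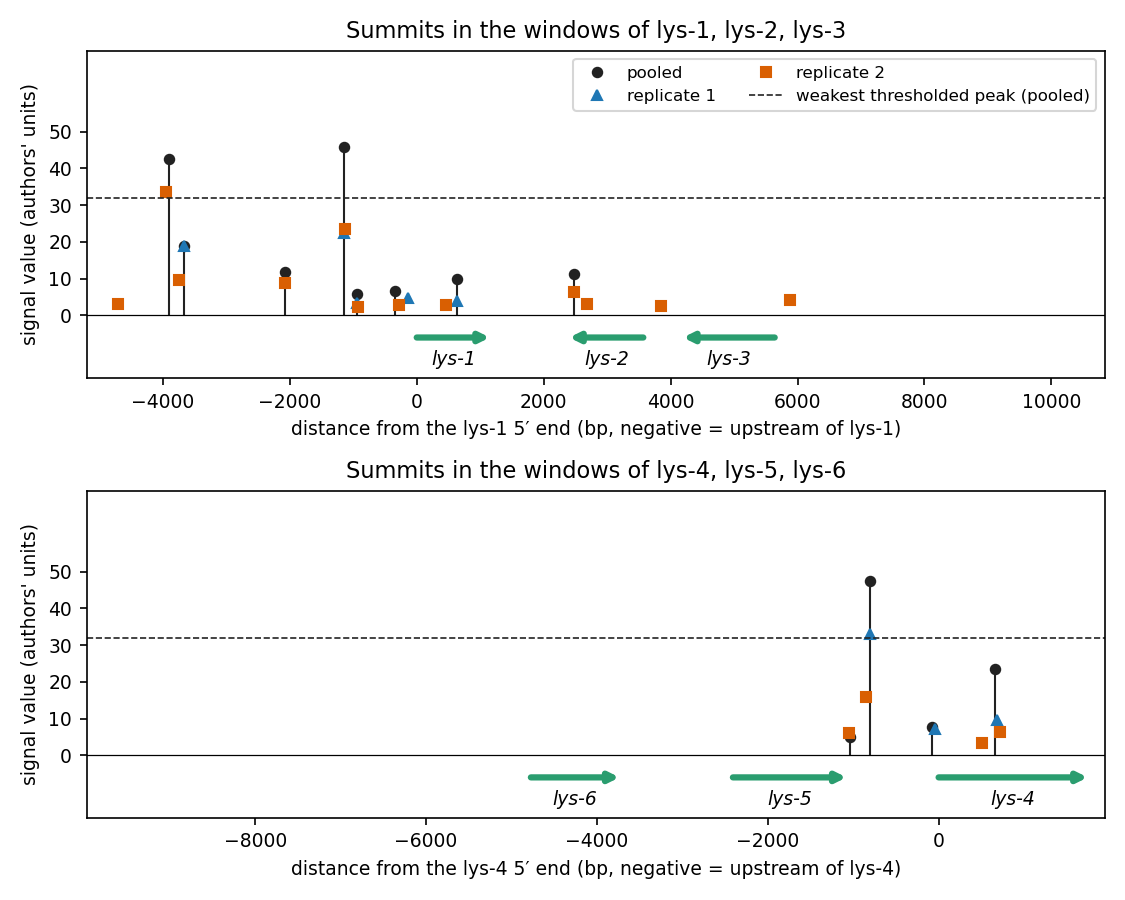
Entries in the windows of lys-1, lys-2 and lys-3 (top) and of lys-4, lys-5 and lys-6 (bottom), placed by summit (x axis, distance in bp from the 5′ end of lys-1 or lys-4; y axis, signal value in the authors' units), with pooled entries on stems, replicate 1 as triangles, replicate 2 as squares, genes as arrows and the pooled signal of the weakest thresholded peak, 31.9, as a dashed line. The 3 pooled sites above the line are the pair upstream of lys-1 and the one upstream of lys-4, and no entry lies in the windows of lys-5 and lys-6.

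The occupied genes both belong to clusters of lys genes, and their neighbours were not occupied. On chromosome V, lys-1 (10277904 to 10279056, plus strand) is followed by lys-2 (10280307 to 10281474) and lys-3 (10282100 to 10283544) on the minus strand. On chromosome IV, lys-4 (11621429 to 11623174), lys-5 (11624252 to 11625582) and lys-6 (11626910 to 11627947) lie one after another on the minus strand. The nearest thresholded summit to lys-5 was the lys-4 site, 271 bp past the 3′ end of lys-5 and 1601 bp from its 5′ end. The same summit was the nearest to lys-6, 3966 bp from its 5′ end. For lys-2 and lys-3 it was the nearer lys-1 site, 4710 and 6780 bp from the 5′ ends. The rule counts only sites in a gene or upstream of it, so none of these counted for the neighbour.

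The lys genes outside the clusters lay farther from thresholded summits. For lys-8 (chromosome II, 5586178 to 5587651, plus strand) the nearest was 7555 bp from the 5′ end and 6082 bp past the 3′ end, a strong peak of 299 at rank 217. The distance was 23323 bp for lys-7 (chromosome V, 3481432 to 3482600, minus strand) and 33692 bp for lys-10 (chromosome IV, 8332826 to 8333518, plus strand). It was 43231 bp for lys-9 (chromosome I, 12454853 to 12455826, minus strand). The last 3 genes were also far from any pooled entry, at 19481 bp for lys-7, 13877 bp for lys-10 and 25287 bp for lys-9. For all protein-coding genes the median distance to a pooled entry was 2023 bp, and 24.0% were more than 9 kb from one. To the nearest thresholded summit, the median distance was 5745 bp for the 10 lys genes and 6428 bp for all genes. In Ensembl the members carry the identifiers WBGene00003090 (lys-1) to WBGene00003099 (lys-10), in order.

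The share of sequence that reads could be placed in was checked, since copies of a gene can lose reads. Stretches of 32 bases that occur once in the genome made up 99.9% of the lys-7 window, 98.9% of the lys-1 and lys-9 windows, 94.3% for lys-8, 92.5% for lys-6, 85.5% for lys-5 and 85.4% for lys-4. The share was lower for lys-3 (80.8%), lys-2 (79.3%) and lys-10 (71.7%), against a median of 98.2% over all genes. Windows with a lower share than that of lys-10 belonged to 6.40% of genes. The 3 thresholded lys peaks, the intronic lys-4 entry and the lys-8 entry upstream of its gene were fully unique, as were 91.6% of all thresholded peaks. The read length is not given in the sources used here, and the part of repeated sequence in the missing entries was not tested.

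E-boxes at the summits were compared with all thresholded peaks. Motifs were searched on both strands in windows of 101 bases, where CANNTG takes in both preferred forms. The palindrome CACGTG was in 1 of the 3 lys windows, against 11.0% of all thresholded windows, 2.04% of control windows placed 500 bp to the left and 2.45% of promoter windows of the same length. CACATG was in 0 of the 3 lys windows, against 15.2% of thresholded, 2.96% of control and 2.99% of promoter windows. Any CANNTG was in 1 of 3 lys windows, against 53.3%, 30.2% and 29.5% in these sets, and TGATAA in 1 of 3, against 15.1%, 9.75% and 12.6%. GTAAACA was in 0 of 3, against 2.497%, 1.31% and 1.58%. With only 3 lys summits, these counts describe the sites and rank nothing.

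Most CACGTG and CACATG sites near lys genes lay more than 50 bp from any pooled summit. Across the gene and 5 kb upstream, 5 of the 10 lys genes had a CACGTG, against 68.6% of all genes, and 10 of 10 had a CACATG, against 89.9%. This came to 0.965 CACGTG and 4.502 CACATG per 10 kb of lys window, against 1.80 and 3.48 per 10 kb over all genes. A site in overlapping windows was counted for each gene, such as the CACGTG 313 bp upstream of lys-5, also in the lys-4 window. Only the lys-4 window had a CACGTG or CACATG within 50 bp of a thresholded summit. The gene lys-5 had a CACGTG 313 bp upstream of its 5′ end, and lys-7 had CATGTG, the other strand of CACATG, 241 bp upstream, and neither had an entry in any list. Upstream of lys-1, a CACATG lay 96.5 bp from the farther summit, inside that thresholded peak but outside the window printed above.

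The promoters of the lys genes, taken as 250 bp before to 50 bp after the 5′ end, shared a GATA site more often than E-boxes. TGATAA was in 9 of the 10 lys promoters, all but that of lys-4, against 30.2% of all protein-coding promoters. Any CANNTG was in 3 of 10 (lys-2, lys-7 and lys-8), against 69.4%. CACGTG was in 0 of 10, against 5.82%, and CACATG and GTAAACA were each in 1 of 10, that of lys-7, against 9.97% and 4.77%. The TGATAA count depended on the length taken, with 2 of 10 lys promoters for 100 bp before the 5′ end, against 16.6% of all, and 10 of 10 for 500 bp, against 46.2%. TGATAA was searched with letters chosen with earlier results known, and no promoter length was planned before the data were seen. These shares are given with no test.

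**Figure D4:**
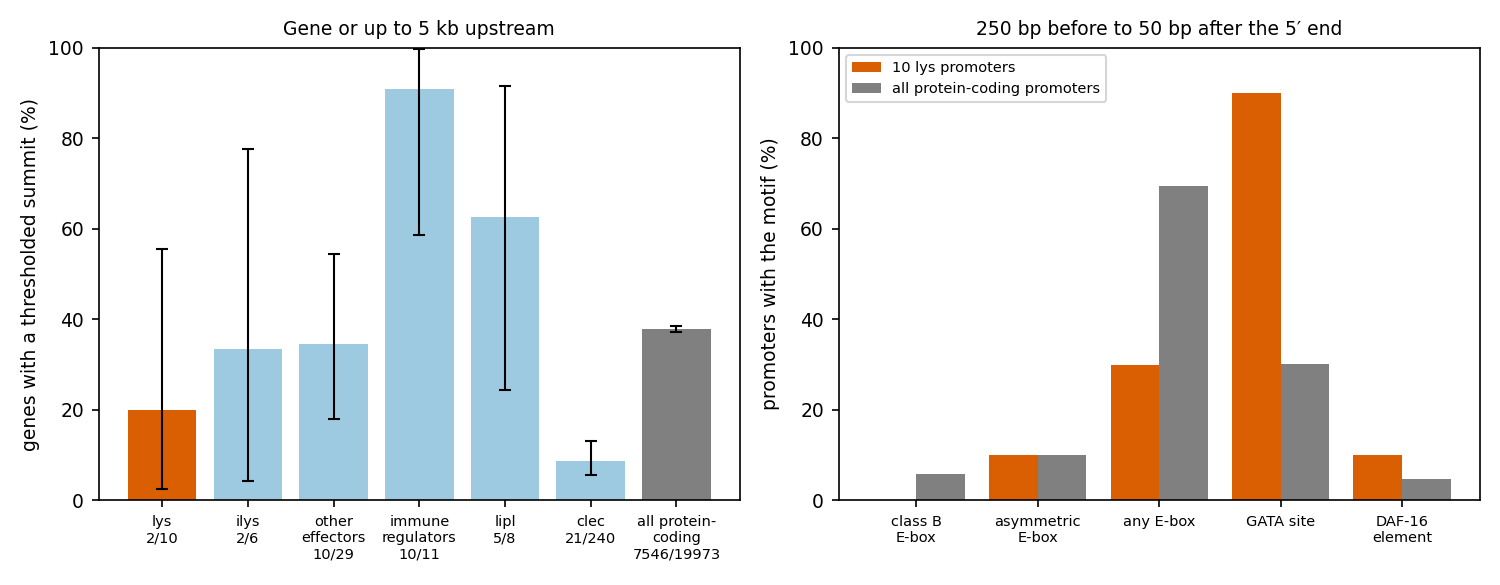
Left, share of genes with a thresholded summit in the gene or up to 5 kb upstream (y axis, percent; bars, gene lists with counts under each; error bars, 95% exact Clopper-Pearson intervals), where the lys bar is at 20% and that of all protein-coding genes at 37.8%. Right, share of promoters holding each motif (y axis, percent; lys promoters beside all protein-coding promoters; class B E-box, CACGTG; asymmetric E-box, CACATG; any E-box, CANNTG; GATA site, TGATAA), where the GATA site is in 9 of 10 lys promoters, against 30.2% of all, and any E-box in 3 of 10, against 69.4%.

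Both the lys-7 and the lys-2 promoter are shown, 300 bases each in ce11 on the strand of the gene, for the motifs they hold without a peak. Capitals mark the same motifs. The lys-7 promoter holds CATGTG at −241, CAACTG at −191, an overlapping TGATAA at −187 and GTAAACA at −97, all counted from the 5′ end to the first base. The lys-2 promoter holds a pair of TTATCA, at −155 and −148, and CAACTG at −99.
lys-7 promoter (chrV:3482551-3482850, minus strand): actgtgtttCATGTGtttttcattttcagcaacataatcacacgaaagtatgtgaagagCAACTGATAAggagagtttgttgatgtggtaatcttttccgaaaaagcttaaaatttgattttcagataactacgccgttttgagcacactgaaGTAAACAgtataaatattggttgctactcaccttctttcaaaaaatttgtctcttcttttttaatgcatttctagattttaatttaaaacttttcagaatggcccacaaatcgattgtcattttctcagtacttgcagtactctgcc
lys-2 promoter (chrV:10281425-10281724, minus strand): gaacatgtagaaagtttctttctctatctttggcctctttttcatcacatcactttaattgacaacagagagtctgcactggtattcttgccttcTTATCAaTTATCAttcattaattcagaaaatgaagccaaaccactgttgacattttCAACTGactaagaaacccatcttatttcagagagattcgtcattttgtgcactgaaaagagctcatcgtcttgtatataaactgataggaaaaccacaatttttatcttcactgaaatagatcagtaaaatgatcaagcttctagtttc

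The lys-8 promoter had 4 TGATAA, at −223, −202, −145 and −126, and all of these lay inside the interval of its pooled entry, the first pair within 50 bp of the summit. Among the 9 promoters compared with each other, that of lys-9 being left out, the longest run shared by a pair was 36 bases, in lys-4 and lys-5. The other 35 pairs shared runs of 7 to 11 bases, with a median of 9. The shared run begins 30 bp upstream of the lys-4 5′ end (chromosome IV) and 87 bp upstream of that of lys-5, and is given in lower case since it holds none of the motifs.
lys-4 and lys-5 shared run: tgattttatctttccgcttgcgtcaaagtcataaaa

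Other defence genes were read by the same rule. The invertebrate-type lysozymes, ilys-1 to ilys-6, are a separate family with the same kind of activity. Of these, 2 of 6 were occupied (33.3%, exact interval 4.33 to 77.7), against 37.8% of all genes, and 5 of 6 had a pooled entry, against 58.6%. The strongest peak of ilys-5, 36 bp upstream of its 5′ end, had a signal of 21.6 in replicate 1, 30.9 in replicate 2 and 47.5 in the pooled list, close to that of lys-4. The ilys-4 peak, 1141 bp upstream and in an intron of atic-1, had a pooled signal of 40.2. An entry shared by the windows of ilys-1 and ilys-2, 1212 bp upstream of ilys-2, had a pooled signal of 30.996, just under the weakest thresholded peak, with 16.8 in replicate 1 and 19.97 in replicate 2. The strongest entry of ilys-3, a gene that acts against bacteria in the pharynx and gut, was 11.6, and ilys-6 had none.

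Of 29 other antimicrobial effector genes, 10 were occupied (34.5%, exact interval 17.9 to 54.3), a share close to the 37.8% of all genes. Their median strongest signal was 65.5, led by 84.3 at spp-8, 79.3 at spp-1 and 68.7 at nlp-28 and nlp-29, which share the peak. The genes nlp-30 and nlp-31 also share their strongest peak, at 45.9, so the 10 occupied genes are not independent. The spp-8 peak was also in the window of hlh-12, and the spp-1 peak in that of umps-1. The spp genes encode saposin-like pore-forming proteins, and nlp-28 and nlp-29 encode antimicrobial peptides of the epidermis. Of 11 regulators of intestinal immune genes, 10 were occupied (90.9%, exact interval 58.7 to 99.8), led by the bZIP factor gene zip-2 at 340, skn-1 at 215 and the p38 kinase gene pmk-1 at 199. The zip-2 peak was also in the window of ceeh-1, and the pmk-1 peak in that of pmk-2. The regulator not occupied was hlh-30 itself, which lies in a wide stretch without entries in any list, and the sources used here do not say whether regions were masked before peaks were called. Longer genes have longer windows, so shares of lists that differ in gene length are not comparable with each other as a measure of binding. Of the lysosomal lipase genes lipl, 5 of 8 were occupied (62.5%, exact interval 24.5 to 91.5), against the same 37.8%. Of the C-type lectin genes clec it was 21 of 240 (8.75%, exact interval 5.50 to 13.1). Some clec genes, such as clec-60, are also in the effector list. The exact intervals treat genes as independent and gene lengths were not matched, so overlap between intervals does not compare the lists. The shares were not tested against each other.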

How the data were processed

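Peak lists in narrowPeak format on ce11 were used, for 2 replicates, both pooled and a list thresholded by the irreproducible discovery rate (IDR). Per the text deposited with the samples, peaks were called against a control alignment. No source used here names the software for alignment or peak calling, or the IDR cutoff. The signal value and the −log10 q-value of each peak are the authors' own, as deposited. Summits were joined to Ensembl release 115 on WBcel235, the same assembly, and sequence was read from its RefSeq FASTA. A summit counted for every gene whose window held it, and a replicate value is the strongest entry covering the summit. Every member was described, with all ilys genes and the 3 strongest genes of the effector list (4 with a tie) and of the regulator list. The lipl and clec lists are given by counts, shares and intervals alone. The members, lists and motifs were chosen with earlier results of these data known. Python 3.11.15, numpy 2.4.6, pandas 2.3.3 and scipy 1.17.1 were used. The code of the window rule was run on simulated summits among 19973 genes. It recovered 200 of 200 summits planted inside a window. With the summits moved just outside the window of their gene, 0 were assigned to that gene. This checks the code, not whether a site belongs to a gene. Intervals cover counting error only, and depth is unknown. Lists on ce10 and signal tracks were not used here.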

Additional observations from a re-analysis of the deposited data

How the results depend on the processing

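The counts were recomputed under other window rules, thresholds and lists. With a reach of 1 kb, 1 lys gene (lys-4) with 1 summit was occupied, against 23.1% of all genes. With 2 kb it was 2 genes with 2 summits, against 27.9%, and with 10 kb 4 genes (lys-1, lys-4, lys-6, lys-8) with 6 summits, against 49.6%. Ending the window at the nearest protein-coding gene left 2 genes with 2 summits, against 26.4%, as lys-1 lost its farther site. Any overlap of the peak interval left 2 genes with 3 summits, against 38.8%. Counting a summit only for the nearest 5′ end left 1 gene (lys-4) with 1 summit, against 23.9%. Among the 3584 strongest thresholded peaks there were 0 lys genes and 0 summits, against 23.4%. All pooled entries gave 4 genes with 13 entries, against 58.6%. Peaks with CACGTG or CACATG within 50 bp left 1 gene (lys-4) with 1 summit, against 11.8%. Leaving out each replicate in turn gave 1 to 2 lys genes with 2 to 3 summits, against 37.9% to 38.0%; without replicate 1 the gene left was lys-1. The share of lys summits with either E-box was 33.3% within 50 bp, 0% within 25 bp and 66.7% within 100 bp, against 25.3%, 14.4% and 34.1% of all thresholded summits. TGATAA was in 2 of 10 lys promoters with 100 bp before the 5′ end, against 16.6% of all. With 1000 bp it was in 10 of 10, against 67.6%. No promoter length, 250 bp included, was planned before the data were seen. The cause of these differences was not tested beyond the smaller or larger windows and lists themselves. No paired analysis was possible because there was 1 group. Unknown depth and 2 replicates limit how far weak sites can be told from background.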

Other observations

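The hlh-30 gene itself (chromosome IV, 4014793 to 4034951), one of the 11 regulators of intestinal immune genes, had no entry in the pooled list or in either replicate list. It lay in a gap of 85952 bp without a pooled summit (3963749 to 4049701), which also held 0 entries of replicate 1 and 0 of replicate 2. Whether this stretch was masked before peaks were called is not stated in the sources used here. The gap was the 61st widest of 29994 between neighbouring pooled summits. The lysozyme gene without an entry in the ilys family, ilys-6, lies at 4062514 to 4063673 on the same chromosome, beyond the end of that gap.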
